A study of Mus musculus with 6 samples.

Results

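The brush border digestive hydrolases are the enzymes that finish digestion on the surface of the enterocyte. 9 of their genes were followed, chosen by symbol: *Alpi*, *Anpep*, *Dpp4*, *Enpep*, *Mme*, *Lct*, *Sis*, *Mgam* and *Treh*, out of 23366 genes counted. RNA-sequencing had been performed on epithelium of the small intestine from mouse embryos at E13.5, sorted for EpCAM, with 500 cells and 15 cycles of cDNA amplification for each library. The mutants, 3 libraries, carried *Shh*-Cre-EGFP and *Tcf7l1* lox/lox, so that Cre made from the *Shh* locus deletes a floxed exon of the transcription factor gene *Tcf7l1* in gut epithelium, and the other 3 libraries were wild type. None of the libraries received a treatment, and no group had Cre beside an unfloxed *Tcf7l1*, so effects of the Cre allele and of *Tcf7l1* loss cannot be told apart. *Shh* itself fell from a mean of 481 ± 65.8 to 198 ± 22.6 normalized counts (adjusted p = 6.1e-05 from edgeR). Whether a library came from a single embryo or a pool is not given in the sources used here.

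Brush border hydrolases are anchored in the apical membrane, with the catalytic part facing the lumen. Alkaline phosphatase removes phosphate from nucleotides, lipids and bacterial products, the peptidases shorten peptides to amino acids and small peptides, and the disaccharidases release simple sugars that transporters then carry into the cell. In the mouse, lactase is the enzyme of the suckling period, and sucrase-isomaltase and trehalase come up around weaning. At E13.5 the gut epithelium has not yet formed villi.

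The total count lay between 18216537 and 20397278 in the 6 libraries. *Tcf7l1* had normalized counts of 364 to 476 in wild type libraries against 33.0 to 73.0 in mutants, so every library stood where its label puts it. *Xist*, made from the inactive X chromosome, had 0 counts in every wild type library and 237 to 452 normalized counts in mutant libraries, and the Y-linked *Ddx3y* had 1746 to 2114 in wild type and 0 in every mutant library, so sex and genotype cannot be told apart. None of the 9 genes lies on a sex chromosome. All 10 epithelial markers passed the filter on low counts, with *Epcam* at 47961 normalized counts or more in every library. Of these, *Cdh1* (log2 fold change -0.57), *Krt18* (-0.54) and *Cldn6* (-0.58) were called lower in the mutants and 0 were called higher, where 5.83% and 2.78% of all tested genes were. The log2 fold change was above 0 for 5 of the 10 epithelial markers and below 0 for 5. Their sum was at 196210 to 210350 in wild type libraries against 195150 to 200280 in mutants, so the groups overlapped. The summed 11 enterocyte markers were at 20600 to 21855 in wild type libraries against 26874 to 28695 in mutants, with 4 genes called higher and 1 called lower against the same 2.78% and 5.83%. Of the 10 blood markers 5 had 0 counts in every library, as did 4 of 6 endothelial and 4 of 6 pancreatic markers. The summed 6 markers of neural crest and neurons were at 207 to 244 in wild type libraries against 195 to 278 in mutants. The 6 liver markers were at 8392 to 9918 and 8278 to 8694, nearly all of it from the 4 that passed the filter. The other 2, *Alb* and *Cyp2e1*, summed to 0 to 5.59 in wild type libraries and to 0 in every mutant library. Of 4 tested liver markers 1 was called lower and 0 higher, against the same 5.83% and 2.78%. The summed mesenchyme markers without *Vim* (9 genes) were at 46.6 to 243 in wild type libraries against 29.9 to 59.6 in mutants, and the 10 gastric markers at 548 to 620.0 and 133 to 183. The part of these markers in the results below was not tested. In bulk libraries, fewer cells of a type and less RNA per cell cannot be told apart.

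Sequences upstream of the start sites are shown for 3 genes: *Alpi*, which was called higher in the mutants, *Dpp4*, the most abundant gene of the set, and *Sis*, which was close to silent. The 250 bases before the RefSeq start (RefSeq sequences of build GRCm38.p6) were located in mm9 by an exact match. They lie at chr1:88998182-88998431 for *Alpi*, chr2:62250289-62250538 for *Dpp4* and chr3:72771786-72772035 for *Sis*, all on the minus strand, and are written 5′ to 3′ along the gene. Capitals mark matches on either strand to motifs of factors known to bind intestinal genes: the HNF4 motif CAAAGTCCA, the CDX motif TTTATG, the motif AGATAA of GATA factors, the HNF1 motif GTTAAT and the TCF/LEF motif CTTTGA. No match overlapped another.
Alpi: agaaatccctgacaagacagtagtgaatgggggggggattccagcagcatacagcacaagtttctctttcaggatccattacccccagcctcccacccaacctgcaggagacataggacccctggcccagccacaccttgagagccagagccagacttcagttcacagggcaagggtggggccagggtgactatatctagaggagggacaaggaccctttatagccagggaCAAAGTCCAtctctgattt
Dpp4: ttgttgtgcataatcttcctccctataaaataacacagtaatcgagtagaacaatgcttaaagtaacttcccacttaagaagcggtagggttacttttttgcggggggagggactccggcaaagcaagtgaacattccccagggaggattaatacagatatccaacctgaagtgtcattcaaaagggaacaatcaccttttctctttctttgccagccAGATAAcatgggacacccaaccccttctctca
Sis: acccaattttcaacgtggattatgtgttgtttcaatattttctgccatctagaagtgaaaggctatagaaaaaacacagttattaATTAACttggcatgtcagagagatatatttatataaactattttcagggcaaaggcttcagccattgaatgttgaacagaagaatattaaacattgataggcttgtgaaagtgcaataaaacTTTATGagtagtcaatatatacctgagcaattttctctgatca

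The *Alpi* sequence held the HNF4 motif 11 to 19 bases before the start, a match that 0.387% of 32536 distinct promoter sequences of this length hold. *Treh*, which had no read in any library, held the same 9 letters on the other strand. *Sis* held the CDX motif 38 to 43 bases before the start and the HNF1 motif on the other strand, which 10.8% and 6.47% of all promoter sequences hold, and *Dpp4* held the GATA motif (9.97%). The GATA motif was also present in *Lct* and *Mgam*, and the CDX motif in *Lct*. None of the 9 sequences held CTTTGA, which 13.9% of all sequences do, and binding of TCF/LEF factors was not tested. The genes lie on 6 chromosomes: *Alpi* and *Lct* on chromosome 1, *Dpp4* on 2, *Mme*, *Sis* and *Enpep* on 3, *Mgam* on 6, *Anpep* on 7 and *Treh* on 9.

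*Alpi* (ENSMUSG00000079440, 88994579 to 88998181 on chromosome 1 of mm9) has near relatives on the same chromosome, and reads were counted where they mapped uniquely. No stretch of 84 bases, the read length, in the *Alpi* transcript occurs in a transcript of another gene. Of its 1582 coding stretches of that length, 60 come within 2 mismatches of *Akp3*, another intestinal alkaline phosphatase, and 0 within 2 of *Alppl2* or *Alpl*. Over the 1582 stretches, the fewest mismatches to any *Akp3* stretch had a median of 16. The closest pair, shown as the extreme case, starts at coding base 115 of *Alpi* and 112 of *Akp3*, and the capital marks the single difference.
Alpi coding: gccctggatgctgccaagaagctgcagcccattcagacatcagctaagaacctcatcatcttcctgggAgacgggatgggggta
Akp3 coding: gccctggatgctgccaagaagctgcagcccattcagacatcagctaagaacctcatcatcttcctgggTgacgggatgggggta
*Akp3* itself had normalized counts of 6.56, 0 and 0 in the wild type libraries, against 0, 0 and 5.53 in the mutants, and *Alppl2* had 0 counts in all. None of the other 8 genes shared a stretch of 84 bases with another gene, and where a relative aligned it was at most 79.8% identical over the aligned bases.

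In wild type libraries the 9 genes covered the range from among the more abundant transcripts to none. Levels are compared between genes as RPKM, reads scaled to exon length in kilobases and to TMM-adjusted library size. *Dpp4*, which encodes a dipeptidyl peptidase that also inactivates incretin hormones, was highest at 38.7 ± 2.08 RPKM (mean ± SD, n = 3), above 81.8% of 11874 tested genes with a known length. *Alpi* followed at 16.0 ± 1.82, *Anpep*, which encodes aminopeptidase N, at 15.6 ± 0.966 and *Enpep*, which encodes aminopeptidase A, at 13.0 ± 2.47. The ranges of neighbours in the order *Alpi*, *Anpep*, *Enpep* overlapped, so their order was not resolved. *Mgam*, which encodes maltase-glucoamylase, had 5.29 ± 1.37 RPKM, below every library of *Enpep*. *Mme*, which encodes neprilysin, had 0.874 ± 0.517, and *Lct*, *Sis* and *Treh* lay below every *Mme* library, at means of 0.0202, 0.00494 and 0 RPKM. In mutant libraries *Alpi* stood apart from *Anpep*, at 21.58 to 30.558 against 15.0 to 17.3 RPKM. All 3 lay below *Dpp4*, at 30.576 to 31.7 in mutant libraries, and the gap was wider with the longest transcript as length (*Dpp4* at 36.7 to 38.0).

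**Figure D1:**
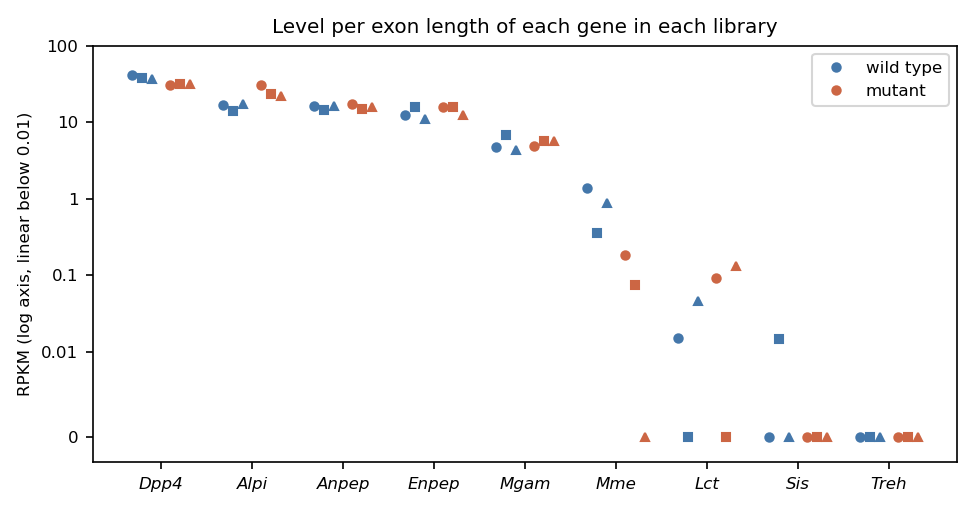
Level of each of the 9 hydrolase genes in each library, as RPKM on a log axis that is linear below 0.01. Blue points are the 3 wild type and orange points the 3 mutant libraries (circle, square and triangle for library 1, 2 and 3). 5 genes lie above 1 RPKM in every library, while *Sis* and *Treh* lie at or near 0.

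The comparison of mutant with wild type libraries asks whether loss of *Tcf7l1* changes these genes in the embryonic epithelium. To be called, a gene needed an adjusted p below 0.01, a log2 fold change of 0.5 or more in either direction and 50 or more normalized counts on average, with edgeR's quasi-likelihood test and Benjamini-Hochberg adjustment over 12501 tested genes. Of the 9 genes, 8 had at least 1 count and 6 passed the filter on low counts. 1 of the 6 was called in either direction, against 8.62% of all tested genes: *Alpi* was called higher, where 2.78% of all tested genes were, and none of the 6 was called lower, where 5.83% were. By the adjusted p alone, a criterion chosen after seeing the data, *Dpp4* and *Mme* were lower, against 7.61% of all tested genes, while *Alpi* was the 1 higher, against 7.32%. The groups did not overlap for these 3 genes, as for 43.0% of all tested genes (20.8% higher and 22.2% lower in the mutants). The median log2 fold change of the 6 genes was 0.03, and that of all tested genes was -0.04.

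Normalized counts of *Alpi*, the gene of intestinal alkaline phosphatase, were 772, 632 and 779 in wild type 1, 2 and 3, against 1393, 1058.5 and 983 in mutant 1, 2 and 3. Every mutant library was above every wild type library, with mutant 1 the highest. The mean rose from 728 ± 82.9 to 1145 ± 218, or 1.57-fold (log2 fold change 0.65, 95% interval 0.36 to 0.94, adjusted p = 0.0025 from edgeR). The call was lost without wild type 2 (log2 fold change 0.56, adjusted p = 0.0178), without mutant 1 (0.49, adjusted p = 0.0210) and with library size as the only scaling (0.55, adjusted p = 0.0107). Its direction held in all of these.

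*Dpp4* (ENSMUSG00000035000, chromosome 2, 62168130 to 62250288 of mm9) had normalized counts of 5052, 4711 and 4549.7 in wild type 1, 2 and 3, against 3771, 3885 and 3909 in mutant 1, 2 and 3. The mutant libraries lay close together and below all wild type libraries. The means were 4771 ± 256 and 3855 ± 73.8, so that the mutant level was 80.8% of wild type (log2 fold change -0.31, 95% interval -0.46 to -0.16, adjusted p = 0.0046 from edgeR). The difference passed the adjusted p but not the fold change set for a call. With a correction for gene length its log2 fold change was -0.09 (adjusted p = 0.35). The adjusted p was over 0.01 without wild type 1, wild type 2, mutant 1, mutant 2 or mutant 3 (0.0134 to 0.0353), and was 0.0010 without wild type 3. The antisense gene *Gm13561* shares 3.67% of the exon bases of *Dpp4*, and whether reads were counted by strand is not given in the sources used here.

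**Figure D2:**
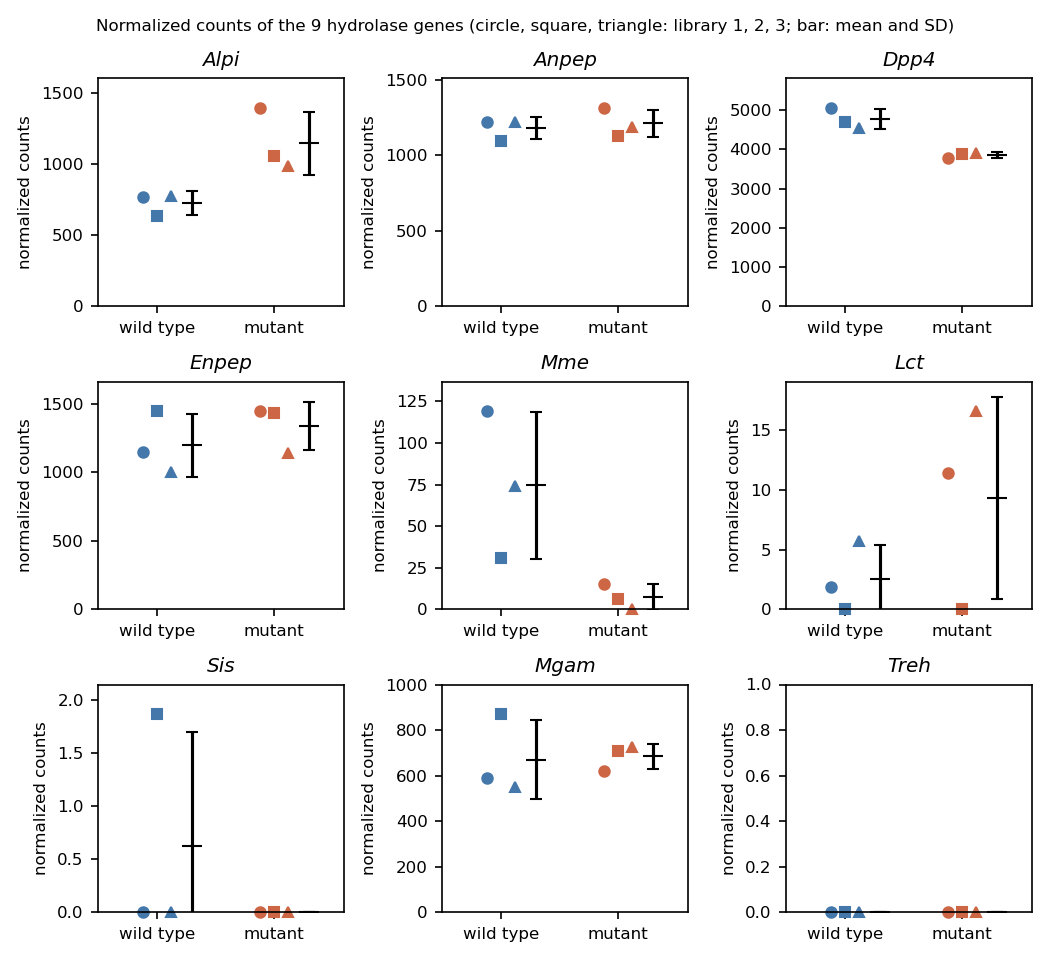
Normalized counts of each of the 9 genes in the 3 wild type (blue) and 3 mutant (orange) libraries, with the group mean and SD in black. Each panel has its own axis from 0, and parts of SD bars below 0 are not shown. *Alpi* is higher in all mutant libraries and *Dpp4* and *Mme* are lower, while the groups overlap for *Anpep*, *Enpep*, *Mgam* and *Lct*.

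The 2 aminopeptidase genes did not pass the test. *Anpep* (ENSMUSG00000039062, chromosome 7, 86966689 to 86993096), whose product takes neutral residues off the amino end of peptides, had 1223, 1096 and 1223 normalized counts in wild type 1, 2 and 3. In mutant 1, 2 and 3 it had 1313, 1132 and 1190.3 (log2 fold change 0.04, 95% interval -0.18 to 0.25, adjusted p = 0.81 from edgeR). *Enpep* (ENSMUSG00000028024, chromosome 3, 128972093 to 129035638), whose product takes off acidic residues and also cleaves angiotensin, had 1146, 1445 and 999.9 in wild type libraries. Its mutant libraries had 1446.5, 1433 and 1138 (log2 fold change 0.16, 95% interval -0.12 to 0.44, adjusted p = 0.38). For both genes the groups overlapped. With the gene length correction the log2 fold change was 0.24 for *Anpep* (adjusted p = 0.079 from edgeR) and 0.38 for *Enpep* (adjusted p = 0.037), and neither was called.

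*Mme* (ENSMUSG00000027820, chromosome 3, 63099794 to 63186153) encodes neprilysin, a zinc endopeptidase that other cell types, stromal cells among them, also make. It had normalized counts of 119, 30.8 and 74.1 in wild type 1, 2 and 3, against 15.5, 6.39 and 0 in mutant 1, 2 and 3. The groups did not overlap, but the wild type libraries differed widely among themselves, with wild type 1 the highest and wild type 2 the lowest. The means were 74.7 ± 44.2 and 7.31 ± 7.81 (log2 fold change -3.31 with an SE of 0.74, adjusted p = 0.0039 from edgeR), from 238 reads in wild type and 21 in mutant libraries. The mutant level was 9.79% of wild type, with an exact 95% counting interval from 6.10% to 15.7% that leaves out the spread between libraries. *Mme* was not called, because its mean over the 6 libraries was 41.0 normalized counts. It was called without mutant 3, where its mean passed that minimum (log2 fold change -2.75, adjusted p = 0.0078), and its adjusted p was over 0.01 without wild type 1 (0.0368), wild type 3 (0.0106) or mutant 2 (0.0161). In wild type 1, 2 and 3 the summed mesenchyme markers without *Vim* were 243, 132 and 46.6, and in mutant 1, 2 and 3 they were 33.1, 59.6 and 29.9.

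The disaccharidase genes held a gene with a clear level and 3 near or at 0. *Mgam* (ENSMUSG00000068587, chromosome 6, 40578830 to 40719122) had normalized counts of 592, 869.8 and 551 in wild type 1, 2 and 3, against 620.2, 708 and 726 in mutant 1, 2 and 3. The groups overlapped, with wild type 2 the highest of all 6 libraries (log2 fold change 0.03, 95% interval -0.31 to 0.36, adjusted p = 0.91 from edgeR). *Lct* (ENSMUSG00000026354, chromosome 1, 130181333 to 130224895), the lactase gene, had 2, 0 and 6 reads in the wild type libraries, against 11, 0 and 15 in the mutants. With library 2 of each group at 0, the groups overlapped, and *Lct* did not pass the filter. Without a filter its adjusted p was 0.39 from edgeR's quasi-likelihood test. For *Sis* (ENSMUSG00000027790, chromosome 3, 72692479 to 72771785), 2 reads were found in all, both in wild type 2. *Treh* (ENSMUSG00000032098, chromosome 9, 44481316 to 44494388) had 0 reads among 116992389 counted reads, which allows up to 3, or 0.0256 CPM, for counting error only. A genotype difference in *Sis* or *Treh* was not detectable at this depth.

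The share of a gene in the summed level restates the levels given above on another scale. The exact permutation test of shares cannot give a p below 0.1 with 3 libraries against 3, so it could not decide on a difference. The summed level of the 9 genes was 92.6, 89.5 and 86.3 RPKM in wild type 1, 2 and 3, against 99.4, 90.9 and 87.2 in mutant 1, 2 and 3. *Alpi* held 17.9% ± 2.19 (SD, n = 3) of the sum in wild type and 27.0% ± 3.26 in mutant libraries, while the share of *Dpp4* was 43.2% ± 0.881 and 33.9% ± 2.85. For both, and for *Mme* (0.971% ± 0.552 and 0.0883% ± 0.0916), the shares of the groups did not overlap, and the exact 2-sided permutation p was 0.1, the smallest that 3 libraries against 3 allow (0.27 after Benjamini-Hochberg adjustment over 8 genes). The shares of *Anpep* (17.4% ± 1.27 and 17.3% ± 0.799) and *Mgam* (5.91% ± 1.52 and 5.87% ± 0.851) overlapped. The ratio of *Alpi* to *Dpp4*, a pair chosen after its values were seen, does not depend on the scaling of the libraries. It was 0.413, 0.363 and 0.464 in the wild type libraries, against 0.999, 0.737 and 0.681 in the mutants.

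**Figure D3:**
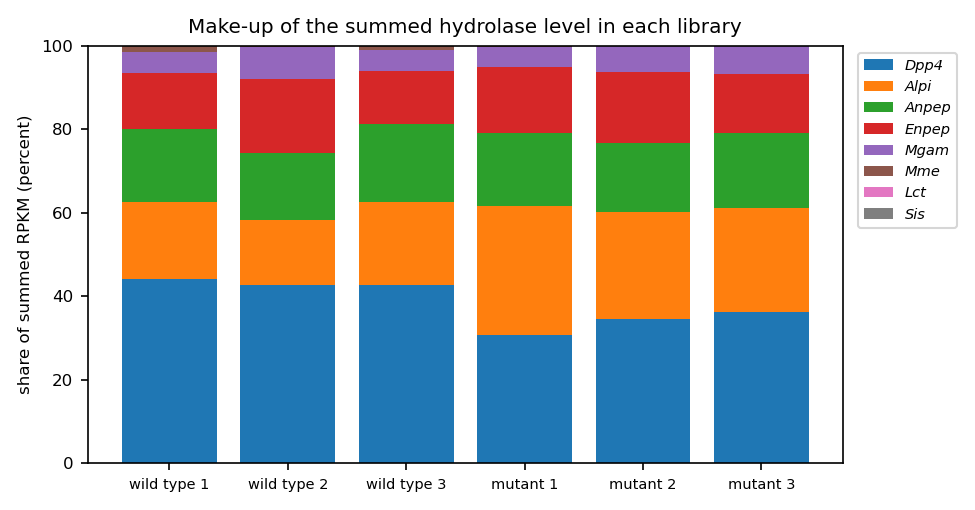
Share of each gene in the summed RPKM of the 9 genes, as stacked bars for each library. The share of *Alpi* is 15.5 to 19.8% in wild type libraries against 24.7 to 30.7% in mutants, and that of *Dpp4* is 42.7 to 44.2% and 30.8 to 36.3%.

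The gene whose pattern over the 6 libraries was most like that of *Alpi* was *Smpdl3b*, with a root mean square difference of 0.0715 between centred log2 CPM values, followed by *Slc7a1* (0.104) and *Ccrn4l* (0.119), among 10564 genes. Nearest to *Dpp4* were *Epm2aip1* (0.0234), *Psme3* (0.0322) and *Phf16* (0.0334), and near to *Anpep* were *Snx10* (0.0306) and *Glb1* (0.0322). *Enpep* was closest to *Adcy6* (0.0314), *Mocs3* (0.0608) and *Aebp2* (0.0652). *Mgam* was closest to *Igf2as* (0.0409), *Baz2a* (0.0641) and *Mtss1* (0.0770). No hydrolase of the set was among the 3 genes nearest to another.

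Among 16 other hydrolases of the luminal surface, 9 passed the filter, of which 1 was called higher and 2 lower (2.78% and 5.83% of all tested genes), with a median log2 fold change of -0.03. *Enpp3*, which encodes a nucleotide pyrophosphatase, rose from 139 to 161 in wild type to 311 to 333 normalized counts in mutant libraries (log2 fold change 1.08 with an SE of 0.18, adjusted p = 4.0e-04 from edgeR). *Xpnpep2*, the gene of an aminopeptidase that cleaves before proline, fell from 163 to 244 in wild type to 32.1 to 53.2 in mutant libraries (log2 fold change -2.20 with an SE of 0.28, adjusted p = 4.8e-05), and lies on chromosome X. *Cpm*, which encodes carboxypeptidase M, fell from a mean of 8510 ± 204 to 5992 ± 428 (log2 fold change -0.51 with an SE of 0.07, adjusted p = 1.0e-04). The fold change of *Cpm* was just under that of a call without wild type 3 (-0.47), mutant 1 (-0.50) or mutant 2 (-0.46) and with DESeq2 (-0.48) or RLE scaling (-0.49), and it was -0.29 with the gene length correction. *Tmprss15*, *Enpp7* and *Folh1* had 0 counts in every library.

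Of 24 relatives of the 9 enzymes by protein family, 14 passed the filter, with 1 called higher and 2 called lower (2.78% and 5.83% of all tested genes) and a median log2 fold change of -0.04. The tissue-nonspecific phosphatase gene *Alpl* had 779, 772 and 787 normalized counts in the wild type libraries, against 554, 342 and 593 in the mutants, the opposite direction from *Alpi* (log2 fold change -0.65 with an SE of 0.17, adjusted p = 0.0088 from edgeR). The call of *Alpl* was lost without any of wild type 1, 2, 3, mutant 1 or mutant 2 (adjusted p 0.0154 to 0.0317). *Erap1*, which encodes an aminopeptidase of the endoplasmic reticulum, rose from 760.1 ± 86.7 to 1187 ± 41.1 (log2 fold change 0.64, adjusted p = 6.7e-04). *Ece1*, the gene of an endothelin-converting enzyme related to neprilysin, fell from 493 ± 63.1 to 246 ± 56.1, or 49.9% of wild type (adjusted p = 9.6e-04). *Gaa*, the lysosomal relative of *Mgam* and *Sis*, had 731 ± 168 and 563 ± 100.1 (adjusted p = 0.11).

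Of 14 genes for carriers of phosphate and of the sugars, amino acids and peptides that the hydrolases release, 10 passed the filter, with 2 called higher and 0 lower (2.78% and 5.83% of all tested genes) and a median of 0.04. *Slc3a2*, which encodes the shared heavy chain of several amino acid exchangers, rose from 4569 to 5403 in wild type to 7648 to 7956 in mutant libraries (log2 fold change 0.64 with an SE of 0.07, adjusted p = 1.6e-05 from edgeR). *Slc7a9*, the light chain of the apical cystine transporter, rose from 593 ± 59.1 to 873 ± 99.2 (log2 fold change 0.56, adjusted p = 0.0042). The call of *Slc7a9* was lost without wild type 1, wild type 2, mutant 1 or mutant 2 (adjusted p 0.0102 to 0.0310). The peptide carrier gene *Slc15a1* and the neutral amino acid carrier gene *Slc6a19*, carriers for peptidase products, had at most 1.11 normalized counts in any library.

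All 23 transcription factor genes on a list for enterocyte genes passed the filter. The list was chosen with earlier results of these data known. It holds *Foxa2* and *Pdx1*, which the study reported as reduced and named among regulators of enteroendocrine cells. Among the 23 genes, 7 were called lower and 0 higher, against 5.83% and 2.78% of all tested genes. The median log2 fold change was -0.48, against -0.04 for all tested genes. It was below 0 for 21 of 23, and for 6787 of all 12501 tested genes. *Foxa2* (-2.94), *Pdx1* (-2.09), *Thrb* (-1.03), *Onecut2* (-0.72), *Cdx2* (-0.68), *Prdm1* (-0.66) and *Gata5* (-0.59) were the genes called lower, at adjusted p values from 3.0e-06 to 0.0094. *Prdm1*, which encodes a repressor that holds back adult enterocyte genes before weaning, had 2697, 3042 and 2946 normalized counts in the wild type libraries, against 1939, 1631.5 and 1915 in the mutants. *Cdx2*, which encodes an activator of *Sis* and other intestinal genes, fell from 796 ± 148 to 495 ± 66.3 (adjusted p = 0.0035 from edgeR). *Hnf4a* was not called (1342 ± 217 and 1196 ± 60.9, adjusted p = 0.31). The call was lost without wild type 1, wild type 2, mutant 1 or mutant 2 for *Cdx2* (adjusted p 0.0114 to 0.0287), without wild type 1, wild type 2 or mutant 3 for *Gata5* (0.0166 to 0.0182), and without any of the 6 libraries for *Thrb* (0.0102 to 0.0586). With the gene length correction *Prdm1* (log2 fold change -0.45), *Gata5* (-0.42) and *Thrb* (-0.81) were not called.

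**Figure D4:**
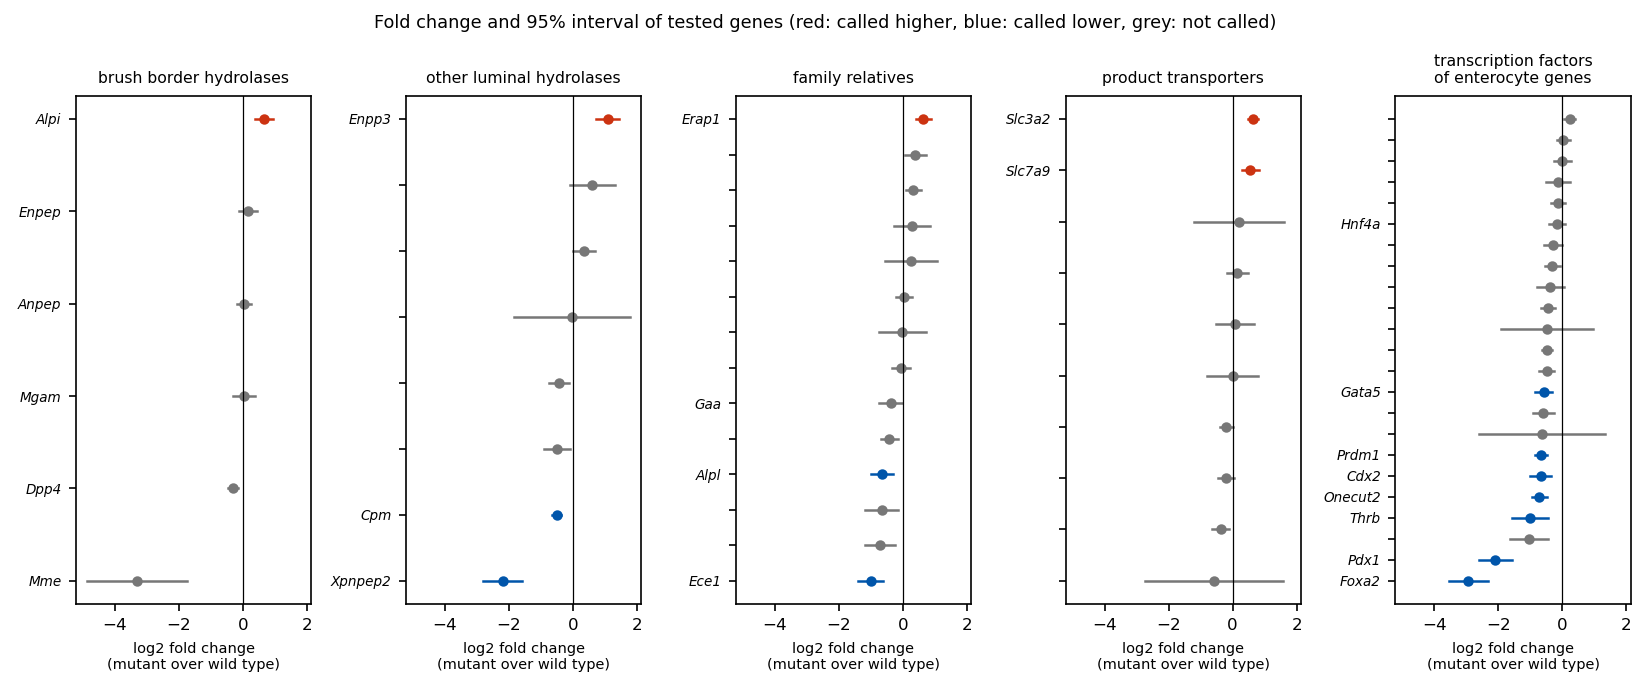
Log2 fold change of mutant over wild type libraries with its 95% interval for the tested genes of the 5 lists, less 1 gene of the other luminal hydrolases that is not reported here. Genes described in the text are labelled. Red marks genes called higher, blue genes called lower and grey genes not called. In the list of transcription factors 21 of 23 points lie below 0, against 6787 of all 12501 tested genes. The 6 tested brush border hydrolases have a median of 0.03.

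The direction of *Alpi*, *Dpp4*, *Mme* and *Enpep* did not depend on the settings tried. With DESeq2, other scalings, other filters, the gene length correction, the replicate block or any library left out, the log2 fold change of *Alpi* lay between 0.49 and 0.75, and *Dpp4* and *Mme* stayed below 0 wherever they were tested. *Anpep* and *Mgam* changed sign with library size as the only scaling and without single libraries. With the gene length correction their log2 fold changes were 0.244 and 0.243.

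**Figure D5:**
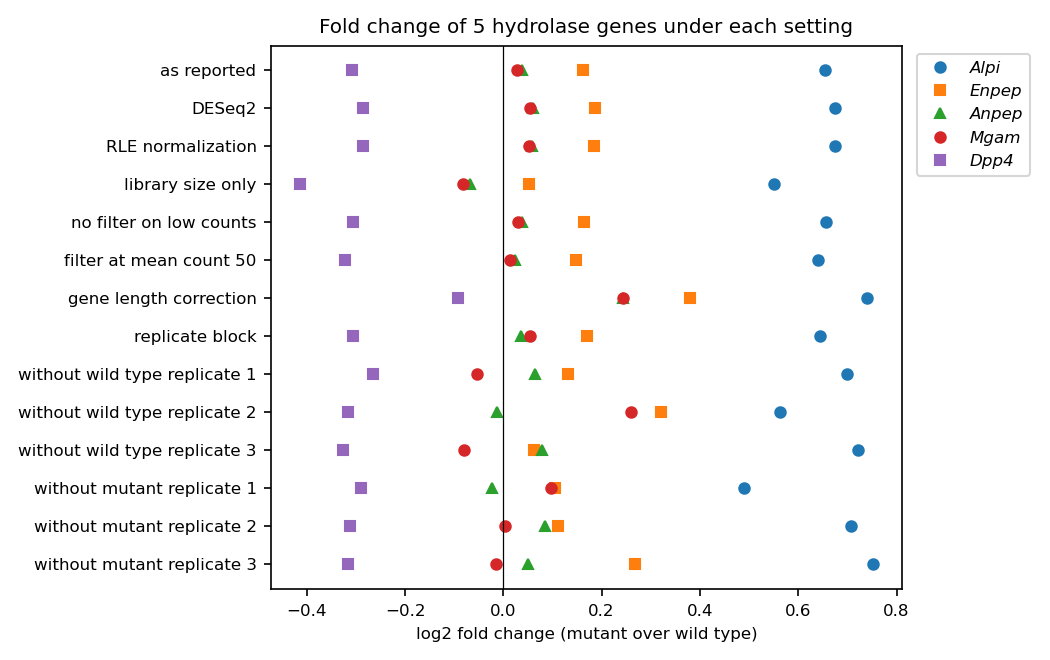
Log2 fold change of *Alpi*, *Enpep*, *Anpep*, *Mgam* and *Dpp4* under each setting, with the reported fit on top. *Alpi* stays at 0.49 or above and *Dpp4* below 0, while *Anpep* and *Mgam* fall on both sides of 0.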

How the data were processed

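Polyadenylated RNA of 500 sorted cells for each library was amplified for 15 cycles and sequenced with reads of 84 bases. According to the study's methods and the submitters' processing notes, reads were mapped to mm9 with STAR 2.5.2b and uniquely mapping reads were counted per gene with featureCounts 1.5.1. The deposited files hold these raw counts, 1 file for each library, and the authors did not normalize them. The reads carry no molecular identifiers, so the exact counting interval of *Mme* and the upper limit for *Treh* cover counting error only. The intervals of the fold changes come from the edgeR fit, which also takes in the spread between libraries.

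Counts were scaled by TMM and compared with the quasi-likelihood test of edgeR 4.0.16 over 12501 genes, on the 3 wild type and 3 mutant libraries with no covariate. Normalized counts are counts at a common library size. The study's minimum on RPKM was replaced by a minimum mean normalized count of 50. RPKM were computed from the union of GENCODE vM1 exons. Shares were compared by exact 2-sided permutation tests. The test was checked on simulated data of 12501 genes, all given the same dispersion, that is, the same relative spread between libraries. The 200 changed genes were drawn from those with 50 or more normalized counts on average. Among these, edgeR recovered 92% of 2-fold changes. The check does not cover changes smaller than 2-fold, such as that of *Alpi*, or genes with fewer counts or a wider spread. The alternatives were DESeq2 1.42.0, other scalings, filters and thresholds, a gene length correction, a replicate block and leaving out each library. RefSeq upstream sequences were searched for motifs on both strands, and transcripts were compared with BLAST+ 2.17.0.

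Named were all 9 hydrolases, every called gene of 4 related lists, further genes of those lists whether or not called (*Akp3*, *Alppl2*, *Gaa*, *Cdx2*, *Hnf4a* and *Prdm1*), the 3 genes of nearest pattern for each hydrolase with a mean count of at least 50, and genes that check the labels. Of the genes this rule takes, 2 are not reported here. *Slc15a1*, *Slc6a19*, *Tmprss15*, *Enpp7* and *Folh1* were named after their values were seen. The genes and lists were chosen with earlier results of these data known.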

Additional observations from a re-analysis of the deposited data

How the results depend on the processing

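With library size as the only scaling the median log2 fold change of all genes moved by -0.11, and with the gene length correction by 0.13, so the balance of calls depended on the scaling. Of all called genes 32.3% were higher, 17.3% with library size only and 64.7% with the gene length correction. Library size only called 200 genes higher in all, 0 hydrolases, 1 product carrier, and 12 transcription factor genes lower. The gene length correction called 771 genes higher and 421 lower, with 1 other luminal hydrolase lower, 2 family relatives higher and 1 lower, and 4 transcription factor genes lower. DESeq2 and RLE scaling each called 1 other luminal hydrolase lower. An adjusted p under 0.05 alone called 1702 genes higher and 1892 lower, with 2 hydrolases lower, 2 family relatives higher and 4 lower, 1 product carrier lower, and 1 transcription factor gene higher and 13 lower. An adjusted p under 0.01 alone, chosen after seeing the data, called 915 genes higher, and 2 hydrolases lower. A log2 fold change of at least 1 left 85 genes higher and 284 lower, with 0 hydrolases, 0 family relatives and 0 product carriers higher, and 1 other luminal hydrolase, 1 family relative and 3 transcription factor genes lower. The calls of *Cpm* (DESeq2, RLE scaling and gene length correction), of *Alpl*, *Gata5*, *Prdm1* and *Thrb* (gene length correction) and of *Slc7a9* (library size only) were lost.

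Leaving out 1 library at a time gave 260 to 516 genes called higher and 405 to 867 lower. The low values of the second count came without wild type 1 (405), wild type 2 (406) and mutant 2 (463). It gave 0 to 1 hydrolases higher and 0 to 1 lower, 1 to 2 other luminal hydrolases lower, 1 to 3 family relatives lower, 1 to 2 product carriers higher and 5 to 7 transcription factor genes lower. The log2 fold change of *Anpep* was -0.023 to 0.085 and that of *Mgam* -0.080 to 0.26 over these fits, and with library size only they were -0.067 and -0.082. That of *Hnf4a* was 0.051 with the gene length correction. With the longest transcript as length, *Dpp4* had 46.4 RPKM in wild type and 37.5 in mutant libraries, and with library size only 30.1 in mutant libraries. The difference in share, in percentage points, was 0.119 for *Anpep* and 0.0480 for *Mgam* with the longest transcript. With 1 library left out it ranged from -0.780 to 0.493 for *Anpep*, from -0.477 to 0.835 for *Mgam*, and from -0.00829 to 0 for *Sis*. The causes were not tested.

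Replicate numbers did not pair the libraries. Deviations of same-numbered libraries from their group means correlated at 0.00971, -0.0449 and -0.0179, and not every library correlated best with its own number. With the replicate number as a block 339 genes were called higher and 691 lower, *Alpi* had a log2 fold change of 0.64 and remained called, *Thrb* was not called (adjusted p = 0.0104 from edgeR), and the adjusted p of *Dpp4* was 0.0163. Reads for *Lct*, *Sis* and *Treh* were too few for a comparison.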
